A study of Drosophila melanogaster with 2 samples.

Results

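Of the 2322 strongest peaks of replicate 1 in a ChIP-seq experiment on the Drosophila transcription factor Trachealess (Trh), 268 (11.5%) had no summit within 100 bp anywhere in the peak list of replicate 3. These 268 peaks are called missing peaks here, and the other 2054 strong peaks are called shared. The strong peaks are the rows of highest signal value in the replicate 1 list of 28743 peaks, taken in the number of the peaks past the irreproducible discovery rate (IDR) threshold of the authors. The signal value is the score the authors' peak caller gave each peak, and it is used only to rank and describe peaks within a list. The missing peaks were chosen by the signal values of replicate 1 and the summit positions of both lists, so their ranks and distances are a description without a test. For most of them a replicate 3 peak lay nearby. For 210 of the 268 (78.4%, exact Clopper-Pearson 95% interval 72.9 to 83.1) a replicate 3 peak interval overlapped the replicate 1 interval by at least 1 bp. In 165 of these 210 the replicate 1 summit itself was inside a replicate 3 interval. The remaining 58, or 2.5% of the strong peaks, had no overlapping replicate 3 peak. These sets are called displaced peaks and peaks without overlap. Overlap mainly restates summit distance, since displaced peaks lay within 385 bp of a replicate 3 summit and the others at 412 bp or farther. Overlap was listed as an alternative to the summit rule and was used to divide the missing peaks after the data had been seen.

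The libraries came from whole embryos of both sexes, collected over 0 to 24 h, of 1 transgenic strain (trh-GFP) that stably carries trh fused at its C terminus to GFP. Chromatin was sonicated to a labelled range of 200 to 800 bp and precipitated with an antibody against GFP. The labels number the 2 biological replicates of this single group 1 and 3, which leaves no condition to compare and no test over samples. The labels do not state which promoter drives the fusion gene. Read depth is unknown because the lists give called peaks alone, and intervals printed here cover counting error over peaks only.

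Trh, a bHLH-PAS protein, pairs with Tango (Tgo) and binds DNA at the core sequence ACGTG. Embryos need it to form salivary ducts, tracheal tubes and posterior spiracles. In whole embryos these tissues are a small share of the cells. ChIP-seq reads pile up around a bound position, and the peak caller reports an interval with a summit at the position of its best score. A peak can therefore recur in a second library with its summit at a moved position.

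The windows of 4 of the 6 strongest missing peaks are given first, because in each a replicate 3 interval overlapped while its summit lay over 100 bp away. The sequences run 50 bp to each side of the replicate 1 summit on dm6, plus strand, at chr3L:21031513-21031613 near CG10584, chr2L:2830371-2830471 near Duox, chr3L:3382560-3382660 near Ids and chr3R:8731812-8731912 near M1BP. Capitals would mark ACGTG or TATCGATA on either strand, and none of the 4 windows holds either.
CG10584: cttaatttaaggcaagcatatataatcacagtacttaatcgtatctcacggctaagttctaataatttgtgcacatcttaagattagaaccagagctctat
Duox: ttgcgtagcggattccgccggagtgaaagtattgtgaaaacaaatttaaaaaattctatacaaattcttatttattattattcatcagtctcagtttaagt
Ids: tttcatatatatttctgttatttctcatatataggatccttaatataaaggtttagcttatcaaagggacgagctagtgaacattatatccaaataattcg
M1BP: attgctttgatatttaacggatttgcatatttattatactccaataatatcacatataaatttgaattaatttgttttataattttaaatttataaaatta

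The windows of the 3 missing peaks that lay farthest from any replicate 3 summit follow, since no replicate 3 peak lay near them. They are at chr3R:10110088-10110188 by Fmr1, chr2L:21629959-21630059 by Df31 and chr3R:9014092-9014192 by Kcmf1, again on the plus strand and without ACGTG or TATCGATA.
Fmr1: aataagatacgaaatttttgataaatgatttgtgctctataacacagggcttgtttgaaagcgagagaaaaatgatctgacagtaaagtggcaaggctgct
Df31: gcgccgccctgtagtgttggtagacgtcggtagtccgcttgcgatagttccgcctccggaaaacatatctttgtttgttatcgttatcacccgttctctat
Kcmf1: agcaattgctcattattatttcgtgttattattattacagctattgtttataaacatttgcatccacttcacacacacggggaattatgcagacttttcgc
The G and C content of the windows was 50.5% at Df31, 35.6% at Fmr1 and 33.7% at Kcmf1, and 14.9% at M1BP, the lowest of the 7 windows shown so far.

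The missing peaks were mostly among the weaker of the strong peaks. Their signal values ran from 47.1 to 180.6 with a median of 54.5, and those of the shared peaks from 47.1 to 600.8 with a median of 70.2. By rank the missing peaks ran from 106 to 2322 with a median of 1771.5, against 1072.5 for the shared peaks. None of the 100 strongest peaks was missing, with an exact interval up to 3.62%. Of the next 400 peaks 4 were missing (1%), and of the 500 after them, down to rank 1000, 34 were (6.8%, interval 4.75 to 9.37). The share was 8.8% in the next 500 peaks, 21.8% (interval 18.3 to 25.7) in the 500 that followed and 23.9% (interval 19.4 to 29.0) in the last 322. All 38 missing peaks of rank 1000 or better were displaced, and the strongest peak without overlap had rank 1008. Peaks without overlap were 9, 23 and 26 of the peaks in the last 3 of these rank ranges. At the lower end of the strong peaks the signal went from 47.076 in the last of them, a missing peak, to 47.0706 in the next row.

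**Figure D1:**
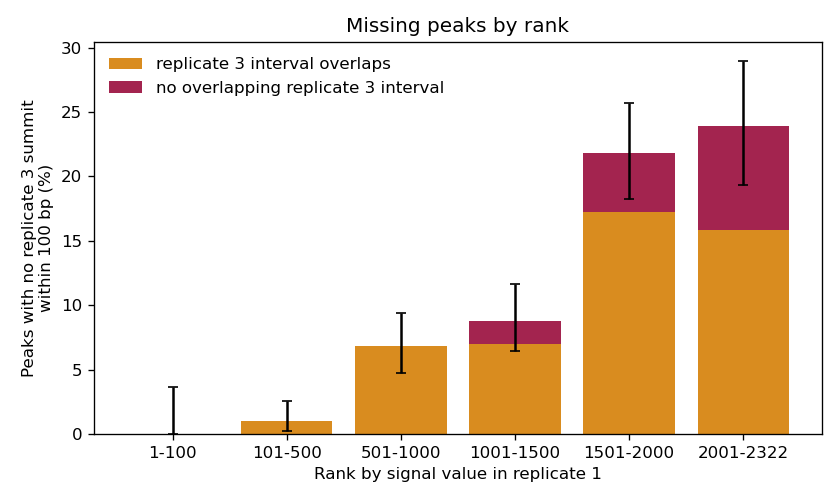
Share of strong replicate 1 peaks that are missing (y axis, percent) by rank in replicate 1 (x axis). Bars are divided into displaced peaks and peaks without overlap, and error bars are exact 95% intervals of the whole share, which goes from 0 in the first 100 peaks to 23.9% in the last range.

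Most missing peaks lay close to a replicate 3 summit, just beyond the limit. Missing peaks lay up to 9515 bp from the nearest replicate 3 summit, with a median of 159.5 bp, and shared peaks between 0 and 100 bp, with a median of 25 bp. In the 10 bp just beyond the limit lay 34 missing peaks, and in the last 10 bp inside it 69 shared peaks. Up to 150 bp there were 119 missing peaks, from there to 200 bp 58, and from there to 400 bp 33. All 210 of these displaced peaks lay within 385 bp of a replicate 3 summit. The other 58 lay at 412 bp or farther, of which 26 were within 1000 bp and 32 beyond it.

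**Figure D2:**
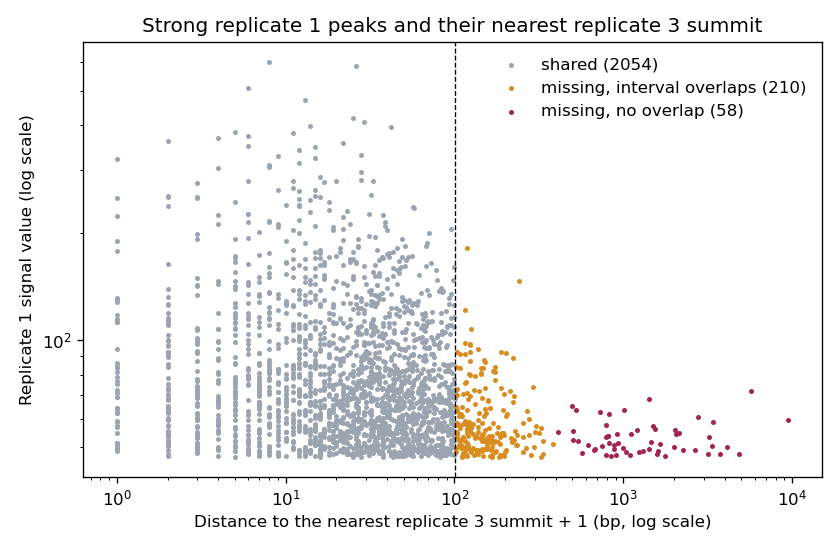
Replicate 1 signal value (y axis, log scale) of each strong peak against its distance to the nearest replicate 3 summit plus 1 bp (x axis, log scale), with the 100 bp limit dashed. Displaced peaks sit directly beyond the limit, and the 58 peaks without overlap start at 412 bp and stay at signal values of at most 71.9.

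The peak by CG10584 (FBgn0037045) on 3L, 203 bp from the transcription start site (TSS) of this gene, is an example of a divided summit. Its signal in replicate 1 was 121.0 (rank 317), and replicate 1 had another summit 203 bp away with a signal of 68.0 (rank 1145). Replicate 3 had 1 summit between them, 115 bp from the first, with a signal of 87.1 (rank 245). The pooled list likewise had a summit 91 bp from the first, of signal 203.2 (rank 298), and it was past IDR. The peak by M1BP on 3R, which encodes a zinc finger protein of core promoters, had the same form. Its replicate 1 signal was 97.7, a second summit followed at 206 bp with a signal of 52.4, and the replicate 3 summit lay between them at 123 bp with a signal of 59.6.

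Other missing peaks also had a close neighbour in replicate 1. Of the 268 missing peaks 114 (42.5%, interval 36.5 to 48.7) had another replicate 1 summit within 250 bp, against 461 of 2054 shared peaks (22.4%, interval 20.7 to 24.3). At ranks beyond 1000 the shares were 40% (interval 33.6 to 46.6) and 22.2% (interval 19.7 to 24.7). The share was 48.6% among displaced peaks and 20.7% among peaks without overlap. In 83 of the 114 pairs the nearest replicate 3 summit lay between both replicate 1 summits. With paired summits about 200 bp apart, the distance rule itself then places the other summit within or near 100 bp of replicate 3, so that recovery of the other summit adds nothing. A single replicate 3 summit between such a pair also leaves at least 1 of them near or beyond the limit. The rule itself thus favours pairs among missing peaks, and the difference between these shares is no separate result. The missing summit was the weaker of the pair in 20 of the 114. Missing peaks are strong peaks by rule, so it could be the weaker only in the 37 pairs whose other summit was also strong. Neighbouring summits at most 250 bp apart numbered 2160 in the whole replicate 1 list and 1550 in that of replicate 3, and no list had summits closer than 199 bp. The 250 bp limit was chosen after the data had been seen.

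**Figure D3:**
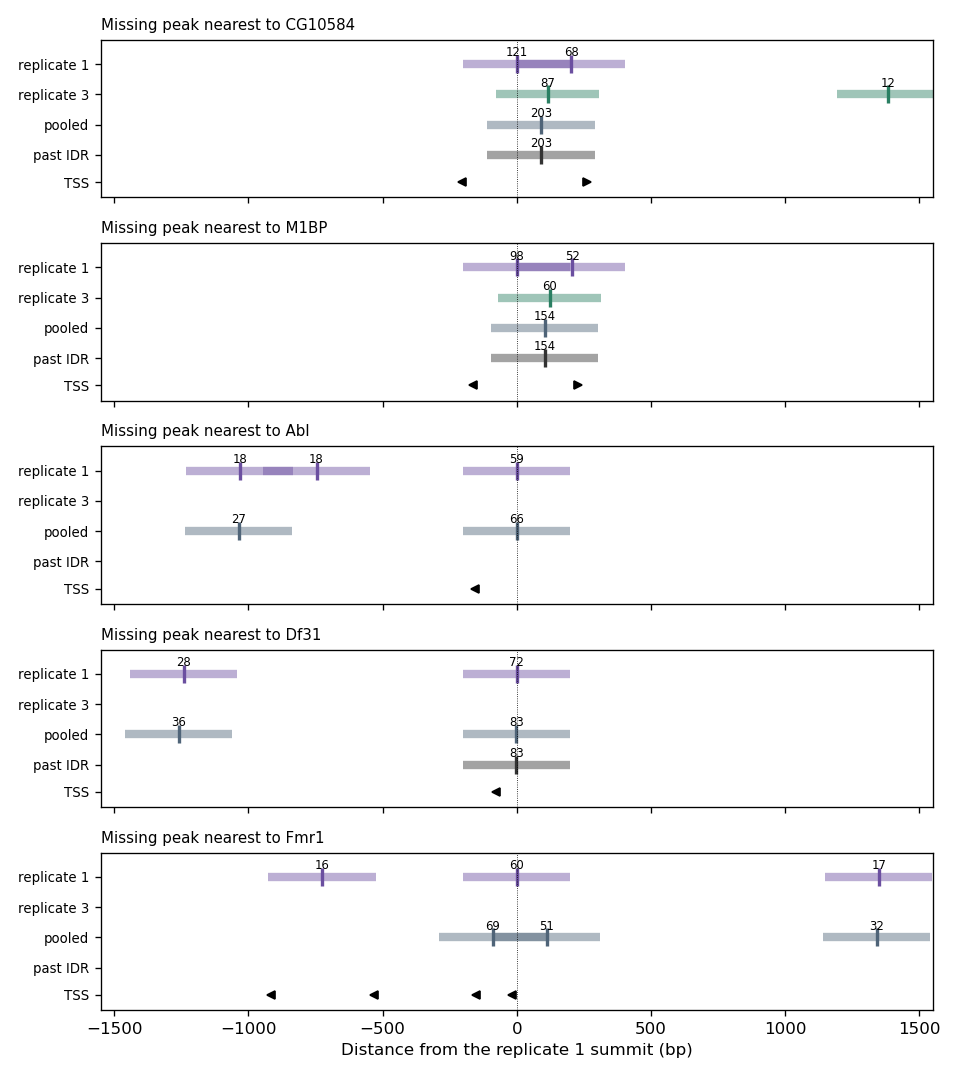
Peak intervals (bars), summits (ticks) and signal values (numbers) of replicate 1, replicate 3, the pooled list and the list past IDR around 5 missing peaks, with TSSs as arrowheads in the direction of transcription (x axis, bp from the replicate 1 summit). At CG10584 and M1BP 1 replicate 3 summit lies between 2 of replicate 1, while at Abl, Df31 and Fmr1 replicate 3 has no peak in the 1500 bp shown on each side.

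Outside such pairs 108 displaced peaks remained, with a median distance of 129.5 bp to the replicate 3 summit, against 155.5 bp within pairs. Among the 117 displaced peaks in promoters the replicate 3 summit was nearer to a TSS in 58 and the replicate 1 summit in 59. These peaks were placed in promoters by the replicate 1 summit, and upstream and downstream shifts were not told apart. A common direction of displacement was therefore not tested. The median distance to the TSS was 123 bp for replicate 1 and 154 bp for replicate 3. The replicate 3 peaks nearest to displaced peaks had signals from 11.8 to 217.0 with a median of 30.7, and 107 of the 210 nearest peaks (interval 44.0% to 57.9%) were among the 2322 strongest of replicate 3. For the shared peaks this share was 76.3%, and for those of rank over 1000 it was 59.2%.

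Other displaced peaks among the 20 strongest missing peaks lay at genes of varied function. Drat (2R, summit 7529459) had a replicate 1 signal of 146.4, and the nearest replicate 3 summit, 239 bp away, had a signal of 100.4. Replicate 1 had another summit 204 bp from the first, with a signal of 133.7 (rank 243), and the replicate 3 summit lay 35 bp from that one, not between both. Duox, which encodes the dual oxidase that makes hydrogen peroxide, had 107.4 in replicate 1 and 42.7 in replicate 3 at a distance of 125 bp (2L, 2830421). At both genes each list held a peak ranked within its first 1204, but at Drat that of replicate 3 matched the other replicate 1 summit.

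The peak by Ids, which encodes a lysosomal sulfatase (3L, 3382610), lay 4342 bp from a TSS, with a signal of 98.3 and a replicate 3 summit of 52.8 at 114 bp. Near CG6550 (2R, 17427590) the values were 97.1 and 69.7 at 123 bp, and near CG34117 (3R, 9400084) they were 94.3 and 44.4 at 137 bp. CG13850 (3R, 22411075) had 92.8 in replicate 1 and 48.5 in replicate 3 at 123 bp. At each of these 4 a replicate 3 interval overlapped that of replicate 1.

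In an intron of bon, whose product is a nuclear cofactor of the TIF1 family, the replicate 1 peak had a signal of 92.5 and the replicate 3 summit, 187 bp away, one of 52.4 (3R, 20594422). At Tsp42El, a tetraspanin gene, the distance was 102 bp, with signals of 92.4 and 81.1 (2R, 7045453). Cox17, which encodes a copper chaperone of cytochrome c oxidase, had 92.2 and 60.1 at 202 bp (X, 15084788). The last 8 of the 20, at CG9921, CG15283, JIL-1, gry, Cnx99A, CG7789, CG9815 and CG6163, had replicate 1 signals from 84.0 to 91.6. Of these, JIL-1 encodes a kinase of histone H3 and Cnx99A the chaperone calnexin. The replicate 3 signal was lowest at Cnx99A, with 24.8 against 87.5 in replicate 1 and a −log10 q value of 0.669 in replicate 3. At CG9815 the distance was the smallest the rule admits.

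The 58 peaks without overlap had low signals throughout. Their replicate 1 signals ran from 47.4 to 71.9 with a median of 51.3, at ranks 1008 to 2299. The replicate 3 list held 30000 peaks, down to a signal of 11.8, and none of them overlapped these 58. In the pooled list 57 of the 58 (98.3%, interval 90.8 to 99.96) had a summit within 100 bp, of rank 1936 or lower in the order of signal, with a median of 3306.5 over the 58 nearest pooled peaks. Only 3 of the 58 (5.17%, interval 1.08 to 14.4) had a summit past IDR within 100 bp. The pooled list contains the replicate 1 data, so a pooled peak is no independent sign of recurrence. The list past IDR was also derived from both replicates, so it is not independent of the rule either.

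The peak at Df31, whose product is a chromatin protein, was the strongest without overlap (2L, 21630009, 77 bp from the TSS). Its signal was 71.9 in replicate 1 and 82.9 in the pool, it was past IDR, and the nearest replicate 3 summit lay 5722 bp away. The peak at Fmr1 was the farthest of all from replicate 3, at 9515 bp. It lay at 10110138 on 3R, 17 bp from a TSS of this gene for the RNA-binding protein related to human FMRP, and had a signal of 59.5. The pooled list held 2 summits near it, 89 bp to one side with a signal of 69.1 and 111 bp to the other with 51.4, and neither was past IDR.

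At Abl, which encodes a non-receptor tyrosine kinase (3L, 16648038, 156 bp from the TSS), the signal was 58.9 in replicate 1 and 65.5 in the pool, and the nearest replicate 3 summit was 3404 bp away. The histone deacetylase gene HDAC4 had a peak of 50.2 (X, 13285625, 7 bp from a TSS) and no replicate 3 summit within 4120 bp. Kcmf1 (3R, 9014142), Men, the malic enzyme gene (3R, 12728480), prel (2R, 9424078), Gtpx (3L, 3326106), Trim9 (2L, 10543776) and Syx1A, which encodes syntaxin (3R, 24106445), complete the 10 farthest. Their replicate 1 signals ran from 47.8 at Men to 60.9 at Syx1A and their distances from 2776 bp at Syx1A to 4818 bp at Kcmf1. Of these 10 peaks 8 lay within 500 bp of a TSS, which at Trim9 was that of a long non-coding RNA. The peak at Syx1A lay 682 bp from its TSS in an intron of eIF4EHP, and that assigned to Men lay 6038 bp from the Men TSS and 721 bp from that of a long non-coding RNA.

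Displaced peaks had a pooled summit within 100 bp less often than peaks without overlap, and one past IDR more often. The pooled list and the list past IDR were both derived from both replicates, so neither share is independent of the rule. Of the 210, 171 (81.4%, interval 75.5 to 86.4) had a pooled summit within 100 bp, and 100 (47.6%, interval 40.7 to 54.6) had one past IDR. For peaks without overlap these shares were 98.3% and 5.17%, for shared peaks 99.4% and 91.8%, and for shared peaks of rank over 1000 they were 98.9% and 84.9%. The pooled summit was nearer to the replicate 1 summit at 127 displaced peaks and nearer to that of replicate 3 at 81. Every missing peak had a pooled summit within 250 bp.

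**Figure D4:**
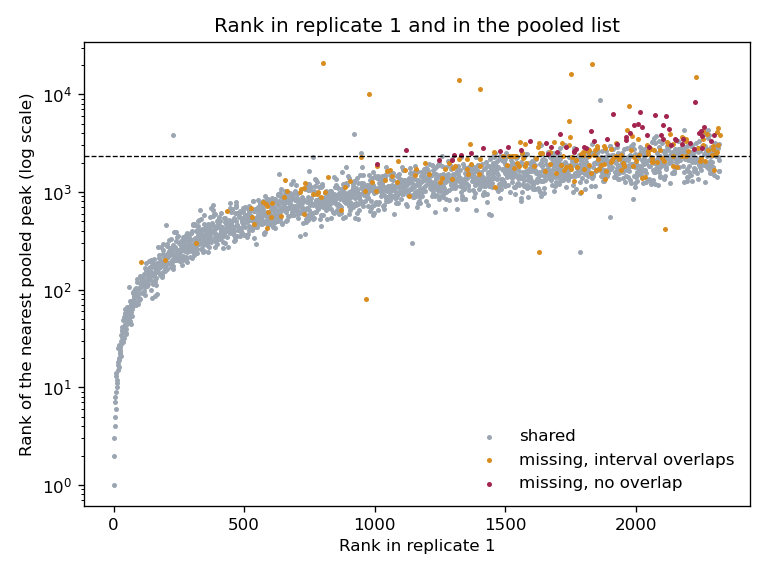
Rank of the nearest pooled peak (y axis, log scale, 1 is the strongest) against rank in replicate 1 (x axis) for the 2322 strong peaks, with the number of peaks past IDR dashed. Peaks without overlap lie at pooled ranks from 1936 to 8421.

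By place in the genome the missing peaks resembled the shared ones. A summit within 500 bp of any annotated TSS was counted as a promoter summit. Of the missing peaks 153 (57.1%, interval 50.9 to 63.1) were in promoters, against 1151 of the shared peaks (56.0%, interval 53.9 to 58.2). Introns held 73 missing peaks (27.2%) and 30.4% of the shared ones, and intergenic sequence 33 (12.3%) and 11.5%. Exons beyond promoters held the rest, of which 4 were in 3′ UTRs. Because the promoter share depends on rank, the comparison was repeated over ranks beyond 1000, where it was 55.7% (interval 49.0 to 62.2) for missing and 50% (interval 47.0 to 53.0) for shared peaks. Peaks without overlap were in promoters in 36 of 58 cases (62.1%, interval 48.4 to 74.5) and displaced peaks in 55.7%. All of these intervals overlap within each comparison. Start sites on both strands were present at 47.1% of the missing promoter peaks and at 42.1% of the shared ones.

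**Figure D5:**
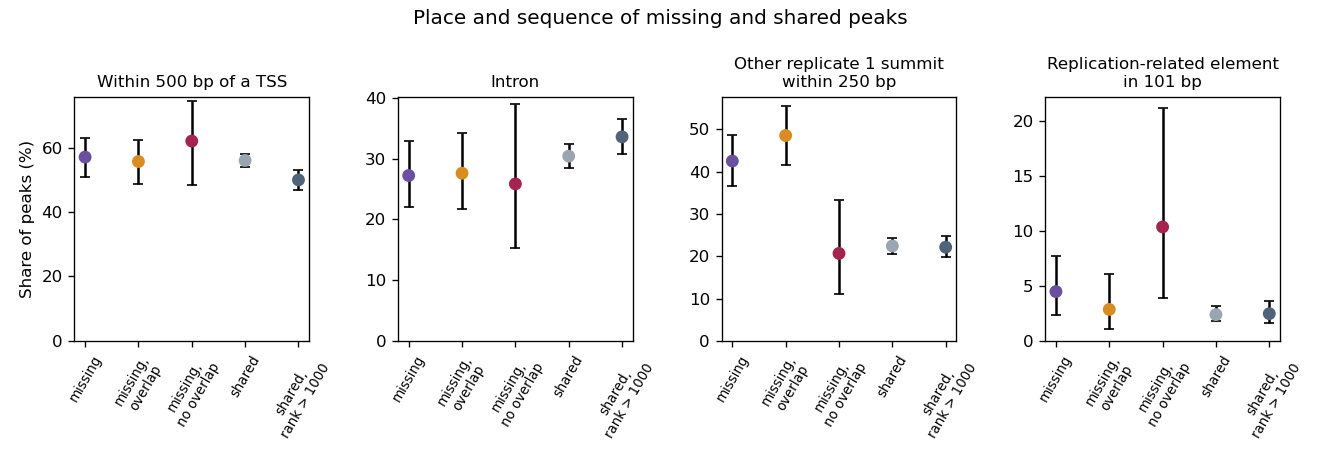
Share of peaks (y axis, percent) in promoters, in introns, with another replicate 1 summit within 250 bp and with the replication-related element TATCGATA, by set (x axis), with exact 95% intervals. The promoter and intron shares of missing and shared peaks overlap. Displaced peaks stand above shared peaks in the third panel, a difference that the 100 bp rule itself favours.

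All main arms were represented. The missing share of the strong peaks was 10.2% on 2L (47 of 461), 11.5% on 2R (47 of 409), 14.1% on 3L (72 of 512, interval 11.2 to 17.4), 12.4% on 3R (69 of 557) and 8.06% on X (30 of 372, interval 5.51 to 11.3). On chromosome 4 it was 3 of 11. The arms with the highest and lowest of the 5 large shares, 3L and X, had intervals that overlap slightly. Of the missing peaks 2 lay within 1000 bp of the missing peak before them on the arm. A shared strong peak lay within 1000 bp of 52 of the 268. Neither count was compared with a background, so bunching was not tested.

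The missing summits were somewhat richer in G and C. The median content in the window from 50 bp before to 50 bp after the summit was 35.6% (interval of the median 33.7 to 36.6) for missing peaks and 32.7% (31.7 to 32.7) for shared peaks. Over ranks beyond 1000 the medians were 36.1% (34.7 to 37.6) and 33.7% (32.7 to 33.7). Single missing peaks ranged from 11.9% to 61.4%, so both sets overlap almost entirely. The medians of displaced peaks and of peaks without overlap were 35.6% and 36.1%.

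For each of the 11 sequences searched in these windows on both strands, the intervals of the missing and the shared share overlapped. ACGTG was in 21 missing windows (7.84%, interval 4.92 to 11.7) and in 6.52% of shared windows (interval 5.49 to 7.68), against 8.10% of all windows of the replicate 1 list and 11.2% of windows of the same length centred on 19252 coding TSSs. The longer TACGTG, which contains ACGTG, was in 9 missing windows (3.36%) and in 2.04% of shared ones, against 2.24% of the replicate 1 list and 2.32% of TSS windows. TGTTTAC, a forkhead type sequence, was in 2.61% of missing and 4.28% of shared windows, and ATGCAAAT, the POU octamer, in 3.73% and 1.66%. GAGAG was in 11.2% and 9.59%. CACCTG was found in 2.61% of missing and 1.85% of shared windows. For the E-box CACGTG the shares were 1.87% and 0.730%. The GATA type sequence AGATAAG stood at 1.12% and 1.27%. For TGACTCA, an AP-1 type sequence, they were 1.49% and 0.974%. No missing window held CAGGTAG (exact interval up to 1.37%), and 0.487% of shared windows did. In windows at coding TSSs the octamer was in 0.639%, and in those of the replicate 1 list in 1.56%.

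TATCGATA, known as the DRE core and found in many fly promoters, was in 12 missing windows (4.48%, interval 2.33 to 7.69) and in 2.39% of shared windows (interval 1.77 to 3.14). Of the 12, 6 were displaced peaks (2.86%) and 6 were among the 58 peaks without overlap (10.3%, interval 3.89 to 21.2). The latter share stands above that of the shared peaks, but the set was taken up after the data had been seen and is 1 of several looked at for 11 sequences. Within promoters the shares were 5 of 36 (13.9%, interval 4.67 to 29.5) for peaks without overlap, 4.08% (interval 3.02 to 5.39) for shared peaks and 4.48% for all coding TSS windows, with overlapping intervals.

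These 6 windows are shown because they carry this count, on dm6 and the plus strand, with TATCGATA in capitals. They lie at chr3L:3471366-3471466 near CG14971 (signal 56.2), chr3R:29675430-29675530 near Bub3 (53.9), a spindle checkpoint gene, chr3L:13918849-13918949 near Rgl (51.3), chrX:13285575-13285675 near HDAC4 (50.2), chr3L:12336520-12336620 near CG10418 (48.9) and chrX:11854950-11855050 near ATP7 (48.6), a copper transporter gene.
CG14971: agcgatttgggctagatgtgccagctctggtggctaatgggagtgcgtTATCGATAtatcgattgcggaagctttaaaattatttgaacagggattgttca
Bub3: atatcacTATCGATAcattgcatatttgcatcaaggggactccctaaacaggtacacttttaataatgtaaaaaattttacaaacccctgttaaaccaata
Rgl: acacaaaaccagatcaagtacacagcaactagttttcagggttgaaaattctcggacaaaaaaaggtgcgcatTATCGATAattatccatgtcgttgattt
HDAC4: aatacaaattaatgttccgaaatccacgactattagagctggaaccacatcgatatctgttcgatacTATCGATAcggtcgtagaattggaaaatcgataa
CG10418: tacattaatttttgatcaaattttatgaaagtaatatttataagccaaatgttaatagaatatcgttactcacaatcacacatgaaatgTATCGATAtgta
ATP7: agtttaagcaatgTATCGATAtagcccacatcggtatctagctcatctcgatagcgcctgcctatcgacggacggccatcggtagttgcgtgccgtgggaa
The peak near Rgl was the only one of the 6 outside a promoter, 1066 bp from a TSS.

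Of the 3 peaks without overlap that held TACGTG, 2 are shown because they carry the longer form of the Trh core, written here on the plus strand with the site in capitals, where CACGTA is its reverse complement. They lie at chr3L:627300-627400, in a region whose nearest coding TSS, that of Reg-2, is 20781 bp away (signal 54.6), and at chr3L:3438761-3438861, in an intron of eIF5B and 13876 bp from the TSS of sty (signal 48.9). The gene sty, named only because its TSS is the nearest coding one, encodes Sprouty, an inhibitor of receptor tyrosine kinase signalling in tracheal branching.
Reg-2: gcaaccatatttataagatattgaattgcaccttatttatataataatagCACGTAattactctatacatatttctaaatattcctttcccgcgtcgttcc
sty: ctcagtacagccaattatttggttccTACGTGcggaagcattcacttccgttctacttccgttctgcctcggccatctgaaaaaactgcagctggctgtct
Another peak without overlap lay 200 bp from that by sty, with a signal of 68.5 at rank 1122, and replicate 3 had no summit within 1414 bp of it. This was the only place where 2 missing peaks lay within 250 bp of each other.

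Missing peaks touched 466 of 13945 protein-coding genes (3.34%), counted where a summit lay in the gene or within 2000 bp of it, and 268 of these genes had no shared strong peak. A summit can be counted for several overlapping or neighbouring genes. The peaks without overlap touched 95 genes, 62 of them with no other strong peak. By nearest coding TSS the 268 missing peaks belonged to 261 genes, so few genes held several.

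Gene lists are read against the 3.34% of all coding genes with a missing peak and the 14.7% of coding genes with any strong peak that held a missing one. None of 24 tracheal regulators had one (interval up to 14.2%), while 5 had a strong peak of any kind. Of 24 genes of tracheal tube structure 2 had one (8.33%, interval 1.03 to 27.0, or 33.3% of the 6 with a strong peak). In crb, which encodes the apical determinant Crumbs, the missing peak was in an intron with a signal of 52.1 (3R, 24298631) and a replicate 3 summit at 115 bp. At pyd, which encodes a junction protein and held 2 missing peaks, the stronger lay 199 bp from a TSS with a signal of 52.0 (3R, 8932095) and a replicate 3 summit at 335 bp. All were displaced peaks, and both genes also held shared strong peaks.

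CrebA, which encodes a regulator of secretion in the salivary gland, was the only 1 of 15 salivary gland and duct genes with a missing peak. The peak lay 1715 bp from its TSS without overlap (3L, 15533680, signal 47.8, replicate 3 summit at 904 bp), beside a shared strong peak of 75.1. Of 11 posterior spiracle genes crb alone had one. Among 12 genes of bHLH-PAS proteins and their partners, cyc and tai each had a displaced peak and no shared one, with signals of 54.2 and 54.9 (16.7%, interval 2.09 to 48.4, or 28.6% of the 7 with a strong peak). That counted for cyc lay at the TSS of its neighbour Fibp. None of 7 FGF pathway genes had a missing peak, and of 21 EGFR pathway genes Raf had a displaced intronic peak of 57.1 and cic 2 displaced peaks, the stronger of 64.1 in an intron.

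Notch itself (N) had a displaced peak of 49.98 at 175 bp from its TSS (X, 3134695), which was also counted for its neighbour kirre. Of 13 Dpp pathway genes shn (53.6) and put (47.7) had displaced peaks, which is 15.4% (interval 1.92 to 45.4), or 20% of the 10 with a strong peak. Of 17 segment polarity genes, fz2, which encodes a Wingless receptor, had a peak without overlap in an intron (3L, 19163090, signal 47.7) and no shared strong peak. Of 11 Hox genes and cofactors, lab had a displaced intronic peak of 49.6. None of 14 Polycomb and trithorax group genes had one, although 10 held a strong peak.

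Of 16 muscle and mesoderm genes 4 had missing peaks, all displaced (25%, interval 7.27 to 52.4, or 50% of the 8 with a strong peak). These were Mef2, a myogenic factor (2R, intron, 69.6, replicate 3 summit at 225 bp), Doc2 (50.9), how (50.1) and kirre, for which the peak is that at the N promoter, 6056 bp from the TSS of kirre. The peak counted for Doc2 was intergenic, 7346 bp from the Doc2 TSS and nearer to that of CG5194, at 2062 bp. For other tissues the counts were 1 of 13 neuron genes (Syx1A), 1 of 13 hemocyte and fat body genes (srp, a GATA factor, 48.6), and none of the glial, epidermal or germline genes. The peak counted for srp was intergenic, 5180 bp from the srp TSS and 3804 bp from that of a long non-coding RNA. Of 13 genes of the ecdysone cascade Eip75B had one (3L, 17999729, 92 bp from a TSS, 74.0, replicate 3 summit at 292 bp), and of 12 stress genes puc (51.2). That counted for puc lay 423 bp from the TSS of its neighbour CG7878 and 15814 bp from that of puc. Among 15 insulator and promoter factors M1BP and Trl (54.7) had one, and among 10 clock genes Pdp1 and cyc. Pdp1 held 2 missing peaks, a displaced one of 54.7 at the TSS of its neighbour CG32369 and one without overlap.

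Ribosomal protein genes had missing peaks at 11 of 88 (12.5%, interval 6.41 to 21.3), above the 3.34% of all coding genes. They also held strong peaks of any kind more often, at 61 of 88. Of the genes with a strong peak 18.0% had a missing one, against 14.7% over all coding genes. Among them were RpL34b (94.3, counted from the peak by CG34117), RpS14a and RpS14b, which share a peak of 76.5, RpS25 (62.02), RpS26 (56.3), RpL36A (53.1), RpL26 (47.3), RpL12 and RpL39, which share one of 50.7, and RpS9. At 10 of the 11 the strongest missing peak was displaced, and at RpS9 (3L, 9509584, signal 50.9, 1 bp from the TSS of its neighbour CG3408) replicate 3 had no summit within 619 bp.

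In the opposite direction, 242 of the 2322 strongest replicate 3 peaks had no replicate 1 summit within 100 bp, and 50 of these had no overlapping replicate 1 interval.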

How the data were processed

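Peak lists in narrowPeak layout on dm6 and dm3 were used. Per the deposited file lists, each replicate's relaxed list was derived from its alignment and from 1 further file used for both, another list came from the pooled alignments, and the peaks past IDR were taken from these. Not given in the sources used here are aligner, peak caller and IDR threshold. The deposited signal value is a score. The deposited −log10 q value was not used to rank peaks. Summits were taken 1-based, and sequences and gene positions came from the fly release 6 genome and Ensembl release 115, whose arm names and lengths were compared with the lists. Depth is unknown, so its effect on precision could not be given.

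The rule, the gene lists and the sequences were chosen with earlier results of these data known. Named genes are those of the nearest coding TSS to the 20 strongest missing peaks and to the 10 farthest from replicate 3, and listed genes with a missing peak, at most 6 per list by signal. A gene that the rule names is not reported here. Sequence windows for the rule came from peaks off 2R. RpL12, RpL39, RpL26, RpL36A and RpS9 were named beyond that limit after their values were seen, as were Bub3, Rgl, CG14971, CG10418, ATP7, Reg-2 and sty for their sequences. Overlap was a listed alternative, but its use to divide the missing peaks, and the divisions by summits within 250 bp and at rank 1000, came after the data had been seen. Of 316 list entries 4 matched no coding gene. No test over peaks was made, and shares carry exact 95% binomial intervals. Distance and overlap code was checked on 2000 simulated peaks, with 300 of 300 displaced peaks recovered. Alternatives are given in the closing section. Python 3.11.15, numpy 2.4.6, pandas 2.3.3, scipy 1.17.1 and matplotlib 3.10.9 were used.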

Additional observations from a re-analysis of the deposited data

How the results depend on the processing

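The number of missing peaks depends by construction on the distance and the number of rows. It was 715 at 50 bp, 76 at 250 bp and 56 at 500 bp, 58 without interval overlap, 104 with the summit in no replicate 3 interval, 4 of the top 500, 38 of the top 1000 and 1454 of the top 5000. It was 271 with the replicate 3 list cut to the length of the replicate 1 list. In dm3 it was 240, there out of 2074 strong peaks and against a replicate 3 list of 16307 peaks.

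The promoter share of missing peaks was 46.6% within 250 bp and 65.3% within 1000 bp of a TSS, 64.5% for the split at 250 bp and 65.8% in the top 1000. For shared peaks it was 44.5%, 65.2%, 53.1% with coding TSSs only, 62.9% in the top 1000 and 50% at ranks over 1000. The median GC content of shared peaks was 31.4% in 51 bp, 34.8% in the wider window tried and 33.7% at ranks over 1000, while that of missing peaks stayed within its interval. The share of missing peaks with a pooled summit was 70.1% within 50 bp and 100% within 250 bp, 96.1% for the split at 250 bp and 98.3% for the split by overlap. The share past IDR was 29.5%, 55.6%, 7.89% and 5.17% in the same order. The median rank of missing peaks was 1926.5 and 1963.5 for these splits. Missing peaks touched 261 genes by nearest TSS and 252 within 1000 bp of a TSS. Both splits for the median rank and the comparisons at ranks over 1000 were chosen after seeing the data.

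No paired analysis was possible because the series has 1 group. Leaving out a replicate was not run, since the rule needs both lists, and ranking by another column was not run because that column held -1 in every row. Depth is unknown, so absence from the replicate 3 list cannot be told apart from a call lost to depth.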

Other observations

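The deposited −log10 q values did not fall steadily with the signal values among the strong peaks of replicate 1. Of the 58 peaks without overlap, the 8 strongest held the highest value of the list, 3.46. The next, at Fmr1 (rank 1479), had 2.99, and among the weaker ones the value was higher again, with 3.00 at Abl (rank 1510), 3.13 at HDAC4 (rank 2043) and 3.19 at capu (rank 2299).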
